A study of Mus musculus with 11 samples.

Results

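Type I interferon response genes were followed in the retina of Nrl knock-out and wild-type mice. They were chosen by name, as 41 genes known to carry the interferon signal, to be switched on by it or to hold it back; the rule uses no measured value. Of the 41, 40 were found among the 23284 genes of the deposited table, and Ifi27 was not analysed here. 39 of the 40 had at least 10 normalized counts in at least 5 of the 11 libraries and were tested beside 14584 genes in all. The gene below that limit was Socs1. Earlier results of these data, among them that several interferon genes were higher in the knock-out, were known when the list was made, so its direction is not independent evidence.

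The samples were whole retinas taken at postnatal day 21, 6 from mice without Nrl (Nrl-/-) and 5 from wild-type mice. Nrl is the transcription factor that directs photoreceptor precursors to become rods; without it, retinas form cone-like photoreceptors in their place. No promoter-driven transgene, treatment or strain is named in the labels. They do not say whether the samples of a genotype came from separate animals, and a p-value here reflects no more than the spread among these libraries, some of which could be technical. Values are normalized counts, that is reads per gene divided by a size factor per library, and they are not scaled to gene length, so levels are compared between libraries and not between genes.

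Interferons alpha and beta are cytokines released by cells that sense foreign or misplaced nucleic acid. They bind the receptor pair IFNAR1 and IFNAR2, whose kinases JAK1 and TYK2 phosphorylate STAT2 among others. With IRF9 it forms part of a complex that enters the nucleus and binds the interferon-stimulated response element, a short repeat in the promoters of many genes whose products degrade viral RNA, block translation or trap virus particles. Interferon gamma signals through another receptor, and many genes, among them guanylate-binding proteins and immunity-related GTPases, answer to both kinds. In the retina microglia, the resident macrophages, are known as one source of and responder to interferon.

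The promoters of these genes are shown first, because the element that the interferon complex binds is written in them. Promoter sequences came from RefSeq (mouse build GRCm38.p6) and covered 250 bases before to 50 bases after each gene's start; 34 of the 41 genes matched. The core of the element was searched as GAAA, any 2 bases and GAAA again, on both strands, overlapping matches included. It stood in 18 of the 34 promoters (52.9%), against 3.99% of the 27025 promoters of all genes and 3.51% of the 10328 promoters of tested genes. 8 of the 34 (23.5%) held at least 2 matches in a promoter, against 0.266% of all genes with a promoter. The windows below are 28 bases long, on the strand of the gene from 5′ to 3′, with the matched letters in capitals; TTTC, any 2 bases and TTTC is the same core read from the other strand. They were picked to show one promoter for each kind of effector, and the pairs in which the core repeats.

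Isg15: tagGAAAAGGAAACCGAAACAGAAAata
Oas1a: tctcggGAAATGGAAACTGAAAatctac
Bst2: ttccagGAAAATGAAACTGAAAggctgc
Irgm1: tttcaaGAAATAGAAACCGAAActgatt
Gbp3: acacagTTTCAGTTTCTATTTCccagat
Gbp2: ctcttttagTTTCACTTTCactgtctta
Ifit1, upstream match: aggcttcagTTTCACTTTCcagtctcag
Ifit1, downstream match: cagtctcagTTTCAGTTTCtcactgctg
Ifit3, upstream match: agtggtaagTTTCACTTTCctcttctgg
Ifit3, downstream match: ttaagtctgTTTCAGTTTCtactttcct
Igtp: ctaggaactGAAACTGAAAgctgttcgg
Irgm2: ccaggaactGAAACTGAAAgctgttcgg
Stat2: gcaccctggTTTCAGTTTCctttcccta
Socs1: ttgccgGAAAGAGAAACCGAAAgcgggg

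The Isg15 window (chr4:156200872-156200899, minus strand) held 3 matches that overlap one another. The windows of Oas1a (chr5:120907524-120907551, minus strand), Bst2 (chr8:71537581-71537608, minus strand), Irgm1 (chr11:48871429-48871456, minus strand), Gbp3 (chr3:142559993-142560020, plus strand) and Socs1 (chr16:10785598-10785625, minus strand) each held 2 overlapping ones. Gbp2 (chr3:142620595-142620622) and Stat2 (chr10:128270267-128270294), both on the plus strand, held 1. In Ifit1 (chr19:34640776-34640803 and chr19:34640795-34640822) and Ifit3 (chr19:34583364-34583391 and chr19:34583398-34583425), also on the plus strand, 2 separate matches stood close together. The windows of the neighbouring genes Igtp (chr11:58199513-58199540) and Irgm2 (chr11:58214904-58214931), both on the plus strand, differed at 1 of 28 bases.

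Matches were spread unevenly over the roles. All 5 GTPase genes with a promoter sequence held the core, though a second promoter of Gbp3 held none. Both RNA sensors with a promoter sequence held it too. So did 5 of 8 of the RNA-binding and RNA-degrading effectors, 2 of 3 of the feedback and ubiquitin-like genes and 2 of 5 of the other antiviral effectors. Of 7 transcription factor genes 2 held it, Stat2 and Irf2, and of the 4 genes of the receptor and its kinases none did. The gamma-activated site, an element of interferon gamma targets, was searched as TTCNNNGAA. It stood in 11 of the 34 genes (32.4%), against 9.55% of all genes with a promoter. Its matches were counted apart from those of the other core and may overlap them. A match is a description of the letters and not a site shown to be bound.

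Nrl, the deleted gene, had 51.7 ± 5.09 normalized counts in knock-out libraries (SD, n = 6) and 37017 ± 1947 in wild-type libraries (SD, n = 5), a log2 fold change of -9.46, so that each library matched its label. All 8 markers of the retina list had enough reads for a test, and 3 were called higher, 2 lower and 3 not. Of the photoreceptor genes, Rbp3 averaged 204236 ± 9762 normalized counts in knock-out retina and 179634 ± 16699.6 in wild-type retina, and was called higher (0.19). Crx was called lower (-0.20). Rcvrn was also called lower (-1.89), with 5477 ± 490 in knock-out retina and 20317 ± 1444 in wild-type retina. Recovered reads ran from 14907613 to 19877314 per knock-out library and from 16126210 to 20685840 per wild-type library, and 3 reads, the limit that a count of 0 allows, were worth 2.61 to 3.59 normalized counts. Knock-out replicate 2, the shallowest of its group, and wild-type replicate 1 had the highest values on the second principal component, 18.95 and 26.5. Knock-out replicate 4 came next at 10.2, and wild-type replicate 5 was the lowest at -15.6. Results are also given without knock-out replicate 2 and wild-type replicate 1. 36 of the 39 tested interferon genes were called higher in the knock-out (limma, adjusted p under 0.05), where 23.6% of all tested genes were called higher, and 1 was called lower, where 22.7% of all tested genes were. 29 were at least 2-fold higher, where 5.17% of all tested genes were. Over all tested genes 3448 were called higher and 3304 lower; with libraries scaled to their totals these were 5861 and 1711, while the interferon genes stayed at 36 and 1. The median log2 fold change over the 39 was 1.48, against -0.01 over all tested genes, and without knock-out replicate 2 the counts were again 36 and 1 and the median 1.41. Without both knock-out replicate 2 and wild-type replicate 1 they were 35 and 1, with a median of 1.45. By the adjusted p of the authors' deposited table, 36 of the 40 were higher and 1 was lower at under 0.05, where 20.3% of the genes with such a p were higher.

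In 33 of the 39 genes every knock-out library lay above every wild-type library, where 16.4% of all tested genes did so, and in Jak1 every knock-out library lay below, where 14.5% did. In 5 genes the libraries of the genotypes overlapped. 4 genes, Oas1a, Oas2, Oas3 and Mx1, had no wild-type library at 10 normalized counts and entered the test only through the knock-out, so that they had to differ. Oasl1, Mx2 and Ifi44 had 1, 3 and 4 wild-type libraries at that level. They needed knock-out libraries to pass, so their calls were partly fixed. Of the 32 genes with at least 10 in all 5 wild-type libraries, 29 were called higher and 1 lower, where 3154 of all 13836 such genes were higher and 3295 lower. A fold change compares log2(normalized count + 1) values, and the added 1 makes it too small for genes with few reads. Exons of Irf1, Irf3, Irf5, Irf7 and Jak1 overlap those of a protein-coding gene on the opposite strand, and those of Irf9 another on the same strand. Exons of Dhx58, Eif2ak2, Gbp2, Ifi35, Oasl1, Tyk2 and Usp18 overlap those of a noncoding gene on the opposite strand. The values of all these genes are uncertain to that degree. All 19 microglia markers were called higher in the same comparison, where 23.6% of all tested genes were, and their values are given after those of the interferon genes. These are bulk samples, in which more cells of a type and more RNA per cell cannot be told apart.

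**Figure D1:**
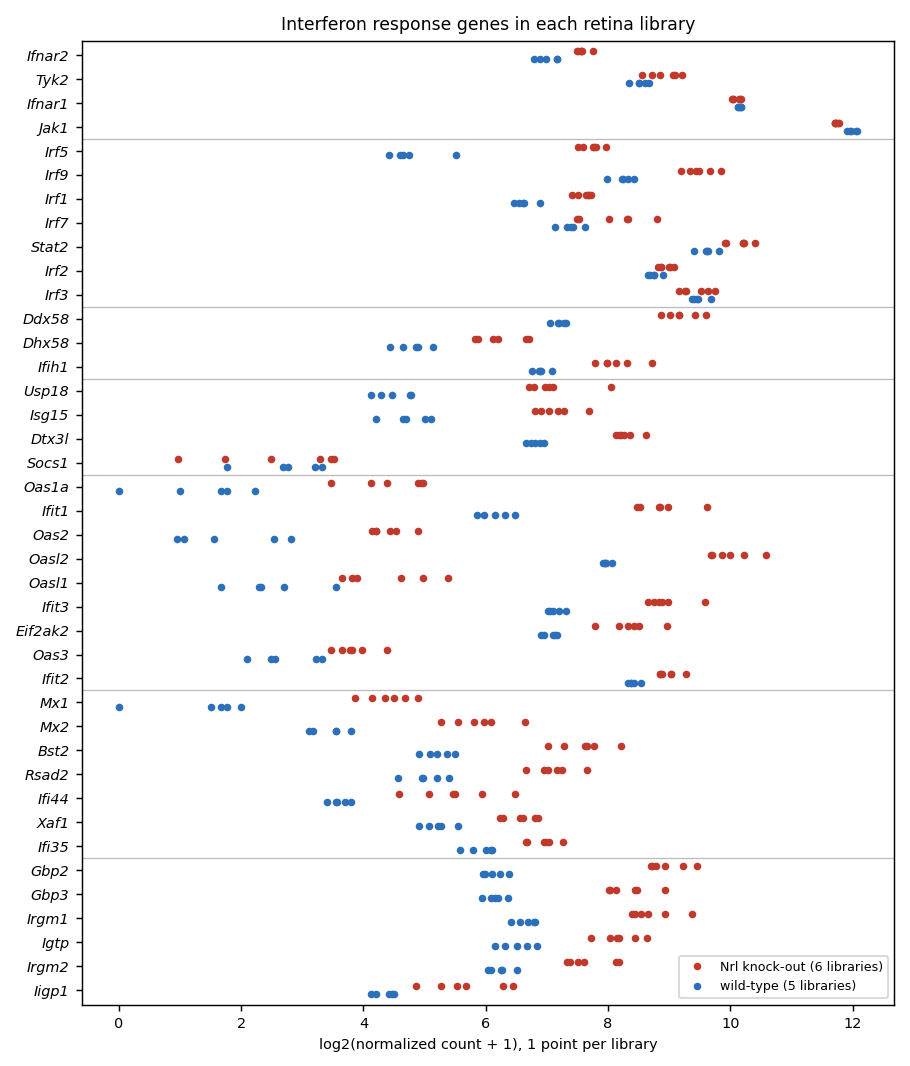
Normalized counts of each tested interferon response gene, and of the untested Socs1, on a log2 scale (log2 of the normalized count + 1), with 1 point per library, 6 Nrl knock-out and 5 wild-type. In 33 of the 39 tested genes the knock-out points lie above all wild-type points. Those of Ifnar1, Irf3, Tyk2, Irf2 and Irf7 overlap with the wild type, and those of Jak1 lie below.

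**Figure D2:**
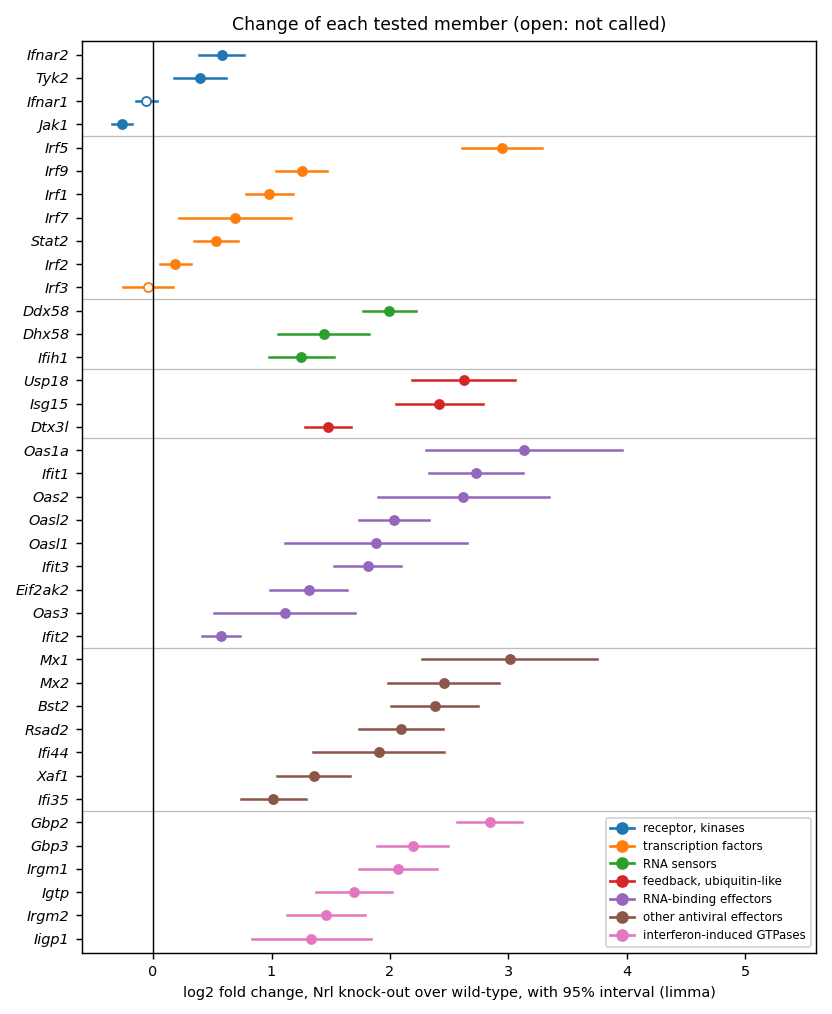
Log2 fold change of each tested gene, knock-out over wild-type, with its 95% interval from limma, coloured by role, with open points for genes that were not called. Values run from -0.26 in Jak1 to 3.13 in Oas1a, and the receptor and kinase genes lie between -0.26 and 0.58.

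The receptor and its kinases had the lowest median log2 fold change of the 7 roles, 0.17, with calls in both directions. Ifnar2, the chain of the receptor that binds interferon most tightly, was higher in the knock-out, as was Tyk2, while Jak1 was lower and Ifnar1 was not called. Ifnar2 had a lowest, median and highest value of 178, 187 and 216 normalized counts in knock-out libraries, against 109, 125, 143, 142 and 117 in wild-type replicates 1 to 5. Every knock-out library was above every wild-type library, and the log2 fold change was 0.58 (SE 0.09, adjusted p = 3.42e-05). Jak1, the kinase that this receptor shares with the interferon gamma receptor, had 3343, 3382 and 3518 in knock-out libraries as lowest, median and highest, against 4332, 4244, 4014, 3996 and 3858 in wild-type libraries. Here the knock-out lay wholly below the wild type, by a log2 fold change of -0.26 (SE 0.04, adjusted p = 1.66e-05); scaled to library totals, under which the median of all genes moved to 0.13, it was -0.13 and still called.

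Tyk2, the partner kinase of Jak1, averaged 489 ± 81.8 normalized counts in knock-out retina and 368 ± 32.3 in wild-type retina (SD, n = 6 and 5). The log2 fold change was 0.40 (SE 0.10, adjusted p = 0.00423), and 1 knock-out library, replicate 2, fell within the wild-type range. Ifnar1, the signalling chain of the receptor, averaged 1096 ± 49.1 in knock-out retina and 1139 ± 21.7 in wild-type retina. Its log2 fold change of -0.06 had a 95% interval of -0.15 to 0.04 (adjusted p = 0.312) and turned to 0.080 when libraries were scaled to their totals, so no direction can be given for it.

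Of the 7 transcription factors 6 were called higher, where 23.6% of all tested genes were, and 1, Irf3, was not. Irf5, Irf9 and Irf1 changed most. Irf5, which acts downstream of Toll-like receptors and is known mainly from macrophages and B cells, had a lowest, median and highest value of 180.2, 216 and 248 normalized counts in knock-out libraries, against 20.4, 25.8, 23.3, 44.7 and 24.0 in wild-type replicates 1 to 5. The lowest knock-out library lay far above the highest wild-type one, which was replicate 4, and the log2 fold change was 2.95 (SE 0.16, adjusted p = 2.01e-11). The Irf5 promoter held no match to the core of the response element. Irf9, the DNA-binding part of the interferon complex, had 588, 704 and 919 in knock-out libraries as lowest, median and highest, against 253, 319, 301, 343 and 300.4 in wild-type libraries. The groups did not overlap, and the log2 fold change was 1.25 (SE 0.10, adjusted p = 2.53e-08).

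Stat2, the part of that complex which is particular to type I and type III interferon, was called higher, with 1142 ± 149 normalized counts in knock-out retina and 789 ± 79.4 in wild-type retina and a log2 fold change of 0.53 (SE 0.09, adjusted p = 9.86e-05). Whether its change differs from that of Irf9 was not tested. Irf1, a factor induced by interferon gamma as well, averaged 195 ± 15.7 in knock-out retina and 98.4 ± 11.4 in wild-type retina. Its log2 fold change of 0.98 (SE 0.09, adjusted p = 6.1e-08) lay just under the 2-fold line.

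Irf7, which drives the second wave of interferon production and is itself induced by interferon, had a lowest, median and highest value of 178, 286 and 443 normalized counts in knock-out libraries, against 161, 171, 167, 139.6 and 197 in wild-type replicates 1 to 5. Knock-out replicates 1 and 5 lay inside the wild-type range and replicate 2 was the highest. The log2 fold change of 0.69 (SE 0.22, adjusted p = 0.0205) was no longer called without wild-type replicate 4, at 0.63 and an adjusted p of 0.053. Irf2, a factor that competes with IRF1 at the same element, averaged 492 ± 35.1 in knock-out retina and 431 ± 28.1 in wild-type retina, a log2 fold change of 0.19 (SE 0.06, adjusted p = 0.0209). That call was lost without wild-type replicate 2, at 0.17 and an adjusted p of 0.054, and without wild-type replicate 5, at 0.17 and 0.058, and the value was 0.32 with libraries scaled to their totals. Irf3, the factor that starts interferon transcription and is activated by phosphorylation, averaged 699.6 ± 115 in knock-out retina and 715 ± 65.3 in wild-type retina, a log2 fold change of -0.04 with a 95% interval of -0.25 to 0.17 (adjusted p = 0.753). Its sign turned when libraries were scaled to their totals, to 0.093, and without knock-out replicate 2 or wild-type replicate 5, to 0.011 and 0.010.

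The 3 cytoplasmic RNA sensors were all called higher, where 23.6% of all tested genes were. Ddx58, which encodes RIG-I, the sensor of short RNA with a 5′ triphosphate, had a lowest, median and highest value of 464, 570.1 and 774 normalized counts in knock-out libraries, against 146, 132, 155, 144 and 158 in wild-type replicates 1 to 5. Even the lowest knock-out library was well above the wild-type range, and the log2 fold change was 2.00 (SE 0.11, adjusted p = 4.03e-11). Ifih1, encoding MDA5, the sensor of long RNA duplexes, averaged 289.7 ± 71.6 in knock-out retina and 119 ± 10.1 in wild-type retina (1.25, SE 0.13, adjusted p = 3.43e-07). Dhx58, encoding LGP2, a relative that lacks the signalling domains, averaged 76.4 ± 20.7 in knock-out retina and 27.1 ± 5.05 in wild-type retina (1.44, SE 0.18, adjusted p = 2.54e-06). For both, every knock-out library lay above every wild-type library.

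Of the genes of feedback and of the ubiquitin-like system, Usp18, Isg15 and Dtx3l were called higher and Socs1 did not pass the filter on low values. Isg15, a small ubiquitin-like protein that is joined to other proteins after interferon, had a lowest, median and highest value of 110.4, 137 and 205 normalized counts in knock-out libraries, against 33.5, 24.9, 17.5, 24.0 and 31.0 in wild-type replicates 1 to 5. The groups lay far apart, with a log2 fold change of 2.42 (SE 0.17, adjusted p = 1.1e-09). Usp18, the protease that removes ISG15 and also holds back the receptor at IFNAR2, had 103, 127 and 264 in knock-out libraries as lowest, median and highest, against 26.4, 21.2, 16.5, 18.5 and 26.0 in wild-type libraries. The highest value, in knock-out replicate 2, stood well above the rest of its group, all of which were still above the wild type, and the log2 fold change was 2.62 (SE 0.21, adjusted p = 8.13e-09).

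Dtx3l, a ubiquitin ligase that works with PARP9, averaged 314 ± 41.3 normalized counts in knock-out retina and 112 ± 9.19 in wild-type retina (1.48, SE 0.09, adjusted p = 1.25e-10); its exons overlap those of Parp9 on the opposite strand, and the strand setting of the counting is not given. Socs1, an inhibitor of the JAK kinases, had 40 reads over the 6 knock-out libraries and 31 over the 5 wild-type ones, and it was not called with the filter left off.

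The 9 RNA-binding and RNA-degrading effectors were all called higher, 8 of them at least 2-fold, with no overlap between genotypes in any. Over all tested genes 23.6% were called higher, 5.17% at least 2-fold, and in 16.4% every knock-out library lay above every wild-type one. Oas1a, Oas2 and Oas3, counted among the 9, passed the filter only through the knock-out libraries and so had to differ. Oasl1, also among the 9, had 1 wild-type library at 10 normalized counts and needed knock-out libraries to pass. Ifit1, which binds RNA that lacks the methyl marks of a host cap, had a lowest, median and highest value of 355, 458 and 786 normalized counts in knock-out libraries, against 79.1, 61.7, 57.3, 69.8 and 88.1 in wild-type replicates 1 to 5. Knock-out replicate 2 was the highest by a wide margin, and the lowest knock-out library was still several times above the highest wild-type one. The log2 fold change was 2.72 (SE 0.18, adjusted p = 2.39e-08). The other members of the family were also called higher, and differences in size between them were not tested. Ifit3 averaged 505 ± 133 in knock-out retina and 139.9 ± 12.3 in wild-type retina (1.81, SE 0.13, adjusted p = 1.24e-08). Ifit2 averaged 508 ± 61.2 in knock-out retina and 339.8 ± 19.98 in wild-type retina (0.57, SE 0.08, adjusted p = 4.92e-06). Ifit1 and Ifit3 have close copies in the mouse genome, so their split of reads is uncertain.

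The 2′-5′ oligoadenylate synthetases make the messenger that switches on RNase L, although some synthetase-like members lack that activity. All 5 genes of the family on the list were called higher, but for Oas1a, Oas2 and Oas3 the filter had fixed this beforehand. For Oasl1, which needed knock-out libraries to pass, it had done so in part. Oasl2 had a lowest, median and highest value of 819, 975 and 1526 normalized counts in knock-out libraries, against 250.4, 266, 248, 242 and 246 in wild-type replicates 1 to 5. The wild-type libraries were nearly level and the knock-out libraries lay far above them, with a log2 fold change of 2.03 (SE 0.14, adjusted p = 3.7e-08). Oas1a had 10.1, 24.3 and 30.4 in knock-out libraries as lowest, median and highest, against 2.40, 3.68, 0, 2.18 and 1.00 in wild-type libraries. Oas1a was near the detection limit in wild type, with 9 reads over 5 libraries against 141 over the 6 of the knock-out. Its log2 fold change of 3.13 (SE 0.39) was 1.97 with a pseudocount of 5. Oas2 (2.62; 1.71 with that pseudocount), Oasl1 (1.88) and Oas3 (1.11) were also low in wild-type retina, and the copies of Oas1 and Oasl make the share of each uncertain.

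Eif2ak2, encoding PKR, the kinase that stops translation on sensing duplex RNA, averaged 339 ± 92.3 normalized counts in knock-out retina and 132 ± 10.3 in wild-type retina (1.32, SE 0.15, adjusted p = 3.47e-06).

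The 7 other antiviral effectors were also all called higher, each at least 2-fold, where 23.6% of all tested genes were called higher and 5.17% at least 2-fold. Mx1, counted among the 7, passed the filter only through the knock-out libraries and so had to differ. Mx2 and Ifi44 had 3 and 4 wild-type libraries at 10 normalized counts and needed knock-out libraries to pass. Bst2, or tetherin, which holds budding virus at the cell surface, had a lowest, median and highest value of 129, 198 and 295 normalized counts in knock-out libraries, against 35.9, 44.2, 29.1, 40.4 and 33.0 in wild-type replicates 1 to 5. The groups did not overlap, and the log2 fold change was 2.38 (SE 0.17, adjusted p = 2.88e-09). Rsad2, encoding viperin, an enzyme that makes a chain-terminating nucleotide, had 100.3, 135 and 201 in knock-out libraries as lowest, median and highest, against 22.8, 35.9, 30.1, 30.5 and 41.1 in wild-type libraries. Again every knock-out library was above the wild type, by a log2 fold change of 2.09 (SE 0.17, adjusted p = 5.43e-09).

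The dynamin-like GTPases Mx1 and Mx2 trap viral nucleoproteins. Mx2 averaged 61.0 ± 21.4 normalized counts in knock-out retina and 9.999 ± 2.18 in wild-type retina (2.45, SE 0.22, adjusted p = 3.3e-08). Mx1, which had to differ, had 128 reads over the knock-out libraries against 9 over the wild-type ones (3.01, SE 0.35, and 1.89 with a pseudocount of 5). Xaf1, a promoter of apoptosis, averaged 94.5 ± 16.6 in knock-out retina and 36.2 ± 6.15 in wild-type retina (1.36, adjusted p = 3.6e-07). Ifi35 (1.02, adjusted p = 3.47e-06) and Ifi44 (1.90, adjusted p = 7.47e-06) completed the group, Ifi35 with the smallest change of the 7.

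Guanylate-binding proteins and immunity-related GTPases coat the vacuoles of intracellular microbes, and interferon gamma is their best-known inducer. All 6 were called higher, each at least 2-fold and with no overlap between genotypes. Over all tested genes 23.6% were called higher, 5.17% at least 2-fold, and in 16.4% every knock-out library lay above every wild-type one. Gbp2 had a lowest, median and highest value of 414, 466 and 702 normalized counts in knock-out libraries, against 74.3, 81.9, 62.1, 61.1 and 68.1 in wild-type replicates 1 to 5. The wild-type libraries were low and close together, and the log2 fold change was 2.84 (SE 0.13, adjusted p = 4.67e-12), the smallest adjusted p among the 39 genes. Irgm1, a regulator of the other GTPases and of autophagy, had 335, 386 and 659.9 in knock-out libraries as lowest, median and highest, against 102, 84.7, 93.2, 110.2 and 111 in wild-type libraries. The knock-out libraries spread over a nearly 2-fold range and lay above the wild type throughout, at a log2 fold change of 2.07 (SE 0.15, adjusted p = 2.27e-08).

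Gbp3 rose by 2.19 (adjusted p = 7.67e-10), Igtp by 1.69 (adjusted p = 1.09e-07), Irgm2 by 1.46 (adjusted p = 4.78e-07) and Iigp1 by 1.34 (adjusted p = 0.000155), all on the log2 scale. Igtp and Irgm2, whose promoter windows were nearly the same, share exons on the same strand in the annotation, so reads there could be assigned to either, and the GTPases have close copies.

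The promoter element was also counted by the size of the change, as a description without a test. Of the 23 genes with a promoter sequence that were called at least 2-fold higher, 15 (65.2%) held the core. Of the 7 called higher by less than 2-fold, 2 (28.6%) held it, Stat2 and Irf2. Ifnar1, Jak1 and Irf3 held none, and Socs1 held 2 overlapping matches while its reads were few in both genotypes. Among tested genes outside the list that were at least 2-fold higher, 35 of 499 (7.01%) held the core.

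Within the knock-out group most of the genes were highest in the same library. Knock-out replicate 2 was the highest of the 6 in 27 of the 39 genes, where it was the highest in 21.6% of all tested genes. It was the highest for all 3 sensors, all 3 tested feedback and ubiquitin-like genes, all 6 GTPases, 7 of 9 RNA effectors and 5 of 7 other antiviral effectors, for 3 of 7 transcription factors, and for none of the 4 receptor and kinase genes. Replicate 5 was the lowest in 18 genes and replicate 1 in 14, where they were the lowest in 21.9% and 17.3% of all tested genes. The median over the 39 genes of log2(normalized count + 1), less the wild-type mean, was 2.11 in knock-out replicate 2 and 1.85 in replicate 4, and 1.14 in replicates 1 and 5. Replicate 2 thus stood highest, and no knock-out library came near the wild-type libraries, which lay between -0.03 and 0.10.

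The SD between libraries on the log2 scale had a median over the 39 genes of 0.32 in the knock-out and 0.17 in the wild type, where the medians over all tested genes were 0.12 in both. Without knock-out replicate 2 the knock-out median was 0.22. The SD was larger in the knock-out in 30 of the 39 genes (76.9%), where it was larger in 54.5% of all tested genes. The 40 genes together had 14105 to 19144 normalized counts per knock-out library and 10139 to 10377 per wild-type library, a ratio of 1.56 between the means of the groups; Jak1 and Ifnar1 made up much of the wild-type sum.

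**Figure D3:**
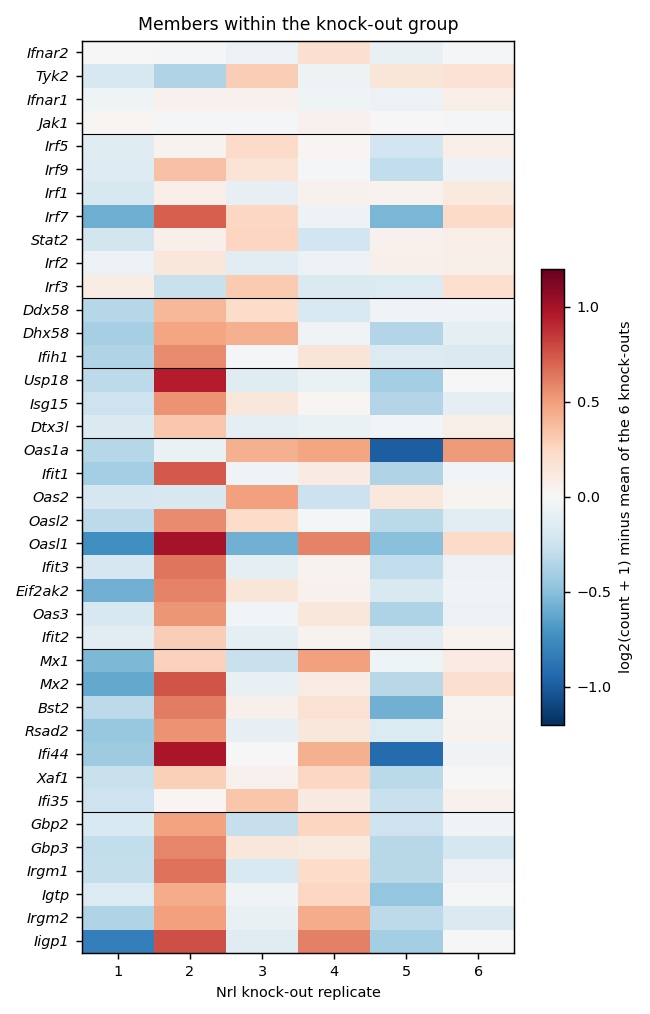
Each tested gene in each of the 6 knock-out libraries, as log2(normalized count + 1) minus the mean of the 6. Knock-out replicate 2 is above that mean in most rows, and replicates 1 and 5 are below it in most.

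Markers of other cells moved with the genotype and are given beside these results. All 19 markers of microglia and macrophages were called higher, where 23.6% of all tested genes were, with a median log2 fold change of 2.07 and none at 0 in either group. They summed to 5443 to 7804 normalized counts in knock-out libraries and 1682 to 2118 in wild-type libraries. Csf1r, the receptor that microglia need to survive, averaged 773 ± 86.5 in knock-out retina and 267 ± 45.8 in wild-type retina (1.54, SE 0.10, adjusted p = 1.69e-09). By knock-out library, the median of the microglia list above the wild-type mean was 2.30, 2.34, 1.71, 2.27, 1.73 and 2.03 in replicates 1 to 6, where that of the interferon genes was 1.14, 2.11, 1.46, 1.85, 1.14 and 1.55. Replicate 2 was the highest and replicate 5 among the lowest on both lists, while replicate 1 was low for the interferon genes and not for microglia. The part of microglia in the interferon result was not tested.

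**Figure D4:**
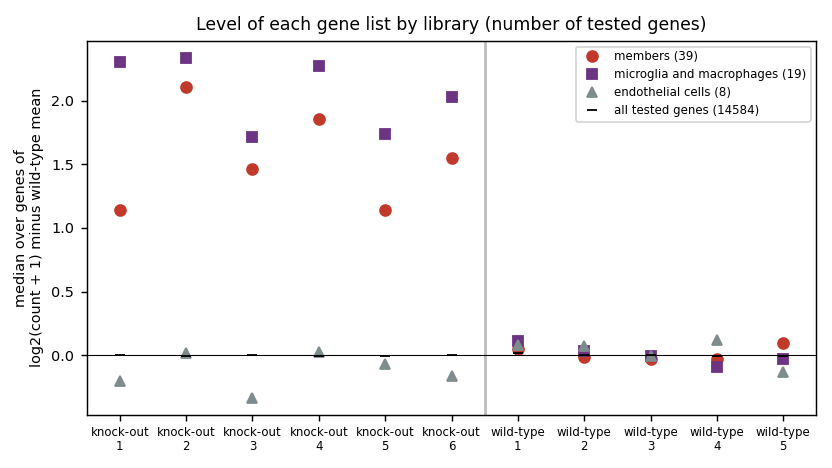
Median over the genes of each list of log2(normalized count + 1) minus the wild-type mean, for each knock-out and wild-type library. The interferon genes stand at 1.14 to 2.11 and the microglia markers at 1.71 to 2.34 in the knock-out libraries, and the endothelial markers at -0.33 to 0.03.

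Of 11 T and natural killer cell markers Cd8a and Lck passed the filter on low values. Cd8a, a chain of the T cell co-receptor that some dendritic cells also carry, averaged 74.1 ± 19.3 normalized counts in knock-out retina and 3.801 ± 1.75 in wild-type retina (4.03, SE 0.27, adjusted p = 3.06e-10; it passed only through the knock-out libraries and so had to differ), and Lck was not called (0.41, adjusted p = 0.175). The other 9 had 101 reads over the knock-out libraries against 22 over the wild-type ones, and the T cell receptor chain Cd3e had 10 against 0; with the filter left off, 4 of the 11 were called higher and 0 lower. The 9 neutrophil and monocyte markers with a row, none of which passed the filter, had 80 reads over the knock-out libraries against 19 over the wild-type ones, with Elane at 0 in all 11 libraries; with the filter left off, 3 of 8 were called higher and 0 lower. Plasmacytoid dendritic cells are a main source of interferon alpha. Of 7 markers of these and of B cells, Siglech was called higher (1.03, adjusted p = 4.82e-05). Ccr9 was not called (-0.18, adjusted p = 0.688, and 0.057 without knock-out replicate 2). Siglech is also carried by microglia, and Ly6d was at 0 in all libraries. Of 8 endothelial markers 7 were not called and Pecam1, named after its values were seen, was called lower (-0.31), a call that was lost or joined by another in 8 of the 11 fits that leave out a library; with libraries scaled to their totals 2 were higher and 0 lower. Of 7 markers of astrocytes and reactive Müller glia 5 were called higher, 1 lower and 1 not, where 23.6% of all tested genes were higher and 22.7% lower. The part of these cells in the interferon result was not tested.

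The genes of the interferons themselves had almost no reads. Of 18 type I interferon ligand genes 16 had a row, and 12 of these were at 0 in all 11 libraries. The 16 together had 5 reads over the 6 knock-out libraries and 1 read over the 5 wild-type ones; Ifnb1, the gene of interferon beta, had 1 against 0, and Ifng, that of interferon gamma, had 6 against 0. A difference in ligand RNA was not detectable at this depth, and the table does not show which interferon, if any, acted on the tissue.

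Beyond the 41 genes, 137 other entries in 7 lists of the same pathway were read, of which 94 passed the filter and were tested. Of the genes named from these lists, Zbp1, Ifi204, Ifi27l2a, Slfn8, Cxcl10 and Gm4951 had no wild-type library at 10 normalized counts, passed only through the knock-out libraries and so had to differ, and their calls are a description. How many of the unnamed genes passed in that way was not counted, so these counts and those of the single lists below were partly fixed by the filter. Il28ra and Tlr7 had 1 wild-type library at 10 normalized counts, Nlrc5 had 3 and Gbp4 had 4. These named genes needed knock-out libraries to pass, so their calls were partly fixed as well. Of the 94, 70 were called higher, where 23.6% of all tested genes were, 8 lower, where 22.7% were, and 16 not. The median log2 fold change was 0.89, against -0.01 over all tested genes. Among other JAK, STAT and IRF genes 8 of 10 were called higher. Stat3, which serves mainly interleukin-6 family cytokines, averaged 4556 ± 302 in knock-out retina and 1283 ± 88.9 in wild-type retina (1.83, SE 0.05, adjusted p = 1.18e-15), and Jak3, the kinase of the common gamma chain receptors, rose by 2.17 (adjusted p = 9.61e-10).

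Of the 4 other receptor genes tested 3 were called higher and 1 lower, where 23.6% of all tested genes were higher and 22.7% lower. Il28ra, the receptor chain for interferon lambda, and Il10rb, its partner, were among the higher ones (1.59, adjusted p = 0.0144, 0.89 with a pseudocount of 5, and 0.38, adjusted p = 0.0119), both with overlapping groups, and the interferon gamma receptor chain Ifngr1 was called lower (-0.34, adjusted p = 0.000299; -0.20 with libraries scaled to their totals). Of 15 other nucleic acid sensors and adaptors 10 were called higher, 1 lower and 4 not, beside the same shares of all tested genes. Tlr7, an endosomal receptor for single-stranded RNA, averaged 43.6 ± 9.99 in knock-out retina and 6.98 ± 3.73 in wild-type retina (2.59, SE 0.28, adjusted p = 2.97e-07); Zbp1, a sensor of Z-form nucleic acid, was at 2.50, and Unc93b1, which carries Toll-like receptors to endosomes, rose by 1.46 (adjusted p = 3.56e-08). The lower gene was Adar, the RNA editor that keeps self RNA from MDA5, named after its values were seen (-0.10, adjusted p = 0.0423). Its call was lost without any of knock-out replicates 1, 4, 5 and 6 or wild-type replicates 2 to 5, and its sign turned, to 0.036, when libraries were scaled to their totals.

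Negative regulators were called at close to the shares of all tested genes, 23.6% higher and 22.7% lower: of 15 tested, 5 were called higher, 4 lower and 6 not, with a median log2 fold change of 0.05. Socs3, an inhibitor of JAK kinases at interleukin-6 family receptors, averaged 522 ± 65.9 in knock-out retina and 57.5 ± 12.01 in wild-type retina (3.17, SE 0.12, adjusted p = 1.33e-13). Nlrc5, which is known both as a brake on innate signalling and as a driver of MHC class I genes, rose by 3.05 (adjusted p = 5.88e-09). Tnfaip3, encoding A20, a brake on NF-kB and RIG-I signalling, averaged 959 ± 43.0 in knock-out retina and 7823 ± 331 in wild-type retina (-3.03, SE 0.04, adjusted p = 2.77e-20), so that it was lower in all 6 knock-out libraries. The other 3 lower genes, named after their values were seen, were Nlrx1 (-1.02), Rnaseh2b (-0.54) and Pias1 (-0.17), the last of which was not called when libraries were scaled to their totals (-0.036).

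Of the 41 other interferon-stimulated effectors tested of 50, 36 were called higher, where 23.6% of all tested genes were, and 1 lower, where 22.7% were, and without knock-out replicate 2 and wild-type replicate 1 together 31 were called higher. Ifi204, a DNA sensor of myeloid cells, averaged 32.3 ± 9.14 in knock-out retina and 3.13 ± 3.44 in wild-type retina (3.44, SE 0.47; 2.27 with a pseudocount of 5). Ifi27l2a was at 3.17 (2.03 with that pseudocount) and Slfn8 at 2.95; members of all 3 of these families have close copies. The lower gene was Tdrd7, an RNA granule protein named after its values were seen, with 2053 ± 137 in knock-out retina and 8478 ± 539 in wild-type retina (-2.05, SE 0.05, adjusted p = 1.23e-16).

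Of 9 tested targets best known from interferon gamma, 8 were called higher, where 23.6% of all tested genes were, with a median log2 fold change of 1.95. Cxcl10 and Gm4951, counted among the 8, passed the filter only through the knock-out libraries and so had to differ. Ciita, the driver of MHC class II genes, named after its values were seen, was not called. The chemokine gene Cxcl10 had a lowest, median and highest value of 37.4, 71.5 and 183 normalized counts in knock-out libraries, against 2.40, 1.84, 4.85, 0 and 0 in wild-type replicates 1 to 5. Its log2 fold change was 5.08 (SE 0.50), and the knock-out libraries spread widely. Gbp4 rose by 2.12 (adjusted p = 6.19e-07) and the predicted gene Gm4951 was at 2.64 (1.63 with a pseudocount of 5).

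**Figure D5:**
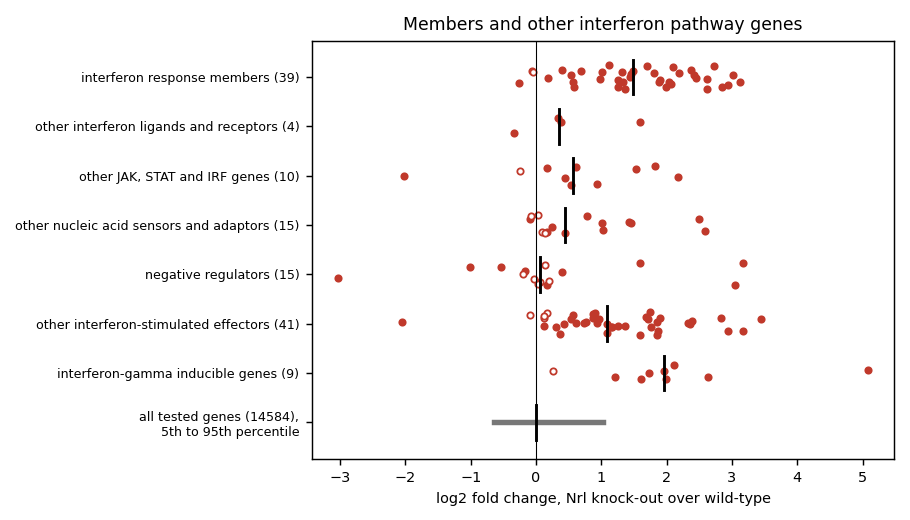
Log2 fold change, knock-out over wild-type, of every tested gene of the interferon response list and of the other pathway lists (filled points called, open points not, bars at the median), with the range of all tested genes from the 5th to the 95th percentile (-0.65 to 1.03). The interferon response genes have a median of 1.48, and the negative regulators lie on both sides of 0, with a median of 0.05.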

How the data were processed

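RNA of 6 Nrl knock-out and 5 wild-type retinas was sequenced in 50-base stranded single-end runs, per the labels' protocols; the labels speak both of polyA RNA and of a ribosomal RNA depletion, which leaves the selection unsettled. The authors deposited 1 table of 23284 genes whose library columns hold a signal, read counts divided by a size factor per library, beside their own log2 fold change and adjusted p-value, per the file headers. HTSeq 0.6.0, TopHat2 2.1.1, DESeq and the build mm9 are listed in the submitters' processing notes; which annotation and which strand option the counting used is not given in the sources used here, so overlapping genes and close copies are uncertain.

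All values (100%) were whole multiples of 1 step per library, to within 1e-06, from which reads were recovered; they totalled 14907613 to 20685840 per library. The main test was limma 3.58.1 (R 4.3.3), two-sided, with trend and robust moderation, on log2(normalized count + 1) with 1 term for genotype, over the 14584 genes with at least 10 normalized counts in at least 5 libraries. Calls were at a Benjamini-Hochberg adjusted p under 0.05 over all tested genes. edgeR 4.0.16, whose quasi-likelihood test on the recovered reads called 3518 genes higher and 3271 lower, DESeq2 1.42.0, limma-voom, other scalings, filters, pseudocounts and thresholds, a replicate block and leaving out each library were alternatives, and the fit was tested on simulated data. Libraries of 1 genotype all differed by more than sampling noise, so none was counted as a duplicate. The members and lists were chosen with earlier results of these data known. Genes named with values come from the members, the 3 called genes with the largest absolute change of each pathway list, the 3 most abundant markers of each cell type list, Nrl, and those said in the text to be named after their values were seen. Promoters and motifs were read from RefSeq sequences of GRCm38.p6; coordinates of other builds were not used with them. Some genes of the pathway lists are counted there but their own values are not reported here.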

Additional observations from a re-analysis of the deposited data

Results flagged for a closer look

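The 160 groups of libraries of 80 genes, the interferon response genes and other genes of the pathway and marker lists, were searched for a library far from the rest of its genotype, and 7 were found; chance alone would mark about 1 group in 20. 3 of the 7 are high values of knock-out replicate 2. Usp18 had 263.5 normalized counts there, against 136.2 in the next knock-out library, Ifit1 had 785.9 against 504.0, and Ifit3 had 767.2 against 506.8. Without that library all 3 genes were still called higher. Ifnar2 had 215.9 normalized counts in knock-out replicate 4, against 190.0 in the next one. Among wild-type libraries, Irf5 had 44.7 in replicate 4, against 25.8 in the next one, Unc93b1 had 37.1 in the same replicate, against 45.1 in its nearest neighbour, and Pias1 had 1904.6 in replicate 2, against 1864.7.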

How the results depend on the processing

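Over the alternatives run, 879 of 889 values of the 39 interferon genes kept their direction and their side of the threshold, 6 values of Irf2 and Irf7 were no longer called, and 4 of Ifnar1 and Irf3, which were never called, changed sign. Ifnar1 turned to 0.080 and Irf3 to 0.093 with scaling to library totals, and Irf3 ran from -0.106 to 0.011 when single libraries were left out, above 0 without knock-out replicate 2 or wild-type replicate 5. Leaving out single libraries gave 35 to 36 interferon genes called higher, 1 lower, and a summed ratio of 1.50 to 1.59; over the library total that ratio was 1.71. At a further 2-fold limit 29 were higher and 0 lower, all tested genes gave 754 higher and 379 lower, and the other pathway genes 43 and 4. With a filter of 50 normalized counts, which fewer genes pass, 28 interferon genes were called higher. Scaling to library totals gave 5861 genes higher and 1711 lower, turned Adar to 0.036 and Esam to 0.078, and ended the calls of Crx and Pias1. With single libraries left out, Ccr9 ran from -0.393 to 0.057, above 0 without knock-out replicate 2. Slc1a3 ran from -0.0139 to 0.0348, below 0 without that library or wild-type replicate 5. Without both knock-out replicate 2 and wild-type replicate 1 Slc1a3 was at -0.0092, and neither gene was called in those fits. With scaling to library totals Slc1a3 (0.15), Kdr (0.20) and Flt1 (0.19) were called higher. The causes were not tested. Same-numbered libraries did not deviate together in every pair (correlations -0.13 to 0.22). Differently numbered ones ran from -0.36, knock-out replicate 5 with wild-type replicate 1, to 0.41, knock-out replicate 2 with wild-type replicate 1. These values cannot tell whether equal numbers mark paired samples. With the replicate number as a block, over replicates 1 to 5, 34 interferon genes were called higher and 1 lower, Irf2 at 0.17 (adjusted p = 0.058) and Irf7 at 0.64 (adjusted p = 0.060) being lost, and 3461 genes were higher and 3332 lower; the same libraries without the block, an alternative added after the data were seen, gave 36 and 1, and 3283 and 3086. Depth limits the ligand genes and most lymphocyte and neutrophil markers.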
